A study of Mus musculus with 24 samples.

Results

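The step from day 3 to day 7 after digit amputation was followed across all genes in C57BL/6 (B6) mice, a common laboratory strain. The 3 arrays titled as B6 digit at day 7 were set against the 3 titled as B6 digit at day 3, which makes 6 of the 24 arrays in the series. The study covered B6 and MRL/MpJ (MRL) digits on days 0, 3, 7 and 14, as 8 groups of 3 arrays. Per the labels, all mice were wild-type and 3 to 4 months old, and the digits of both groups compared here were cut at day 0 and the labels name no other treatment. By the labels the tissue was the second phalanx of both middle hindlimb digits, but their description field speaks of the anterior part of a digit. Arrays of a group are labelled as biological replicates, and no label says how many animals gave RNA to 1 array.

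A cut digit tip first fills with neutrophils and monocytes, which clear debris and release interleukin 1, tumour necrosis factor and chemokines. Osteoclasts, large cells that fuse from monocyte precursors, then dissolve the end of the bone with acid and with the collagenase cathepsin K, while fibroblasts lay down new collagen and other matrix. The wound is covered by epidermis, and bone is later rebuilt by osteoblasts.

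Levels are log2 intensities of 1 probe set per gene, and differences are day 7 minus day 3 on the log2 scale with limma's standard error (SE). A gene passed where the Benjamini-Hochberg adjusted p of limma was under 0.05. Of 15928 probe sets, 3372 (21.2%) passed, with 2708 (17%) higher and 664 (4.17%) lower at day 7. At a size of 2-fold or more, 236 (1.48%) were higher and 125 (0.785%) lower. Among 14807 genes, 2570 (17.4%) were higher, 606 (4.09%) were lower and 21.4% passed in either direction, and the median difference of all genes was 0.09. Counts of gene lists are set against these shares below. The lists were drawn with earlier results of these data known, so the shares describe the lists and do not test them. The surplus of higher calls moved with the scaling between arrays. Of the calls, 80.3% were higher in the deposited values, 50.1% after cyclic loess scaling, 53.2% after quantile scaling and 37.5% after median centring. These scalings moved the median over probe sets from 0.08 to -0.02, -0.01 and -0.09. Lower calls rose from 664 to 1517, 1419 and 2243, and higher calls fell from 2708 to 1523, 1615 and 1347. List counts given after a scaling are to be read against these totals. Without replicate 2 of day 3, 1767 probe sets were higher.

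The median intensity of the arrays was 165, 146 and 143 at day 3 and 174, 159 and 179 at day 7. The correlation of log2 levels over probe sets was 0.985 to 0.988 between day 3 arrays, 0.989 to 0.993 between day 7 arrays and 0.974 to 0.981 between the days. Groups elsewhere in the series went against their labels. Il1b, the cytokine interleukin 1 beta, had a level of 10.21 ± 0.14 (SD, n = 3) under the label MRL day 0 and of 5.98 ± 0.80 under MRL day 3, whereas B6 was low at day 0 and high at day 3. The MRL arrays entered the main fit only through the spread within groups, and a fit of the 12 B6 arrays alone called 2793 probe sets. They also counted in the choice of 1 probe set per gene, in the filter on low values and in the scalings between arrays. The digit tissue carried high epidermal keratin signal, with Krt14, the keratin of basal epidermis, between 13.22 and 13.50 on the 6 arrays. In whole tissue, fewer cells of a type and less RNA per cell cannot be told apart.

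The 15 highest were C1qtnf3, Prss35, Tnn, Akr1c21, H19, Edil3, Atp6v0d2, Itm2a, Epha3, Mfap4, Slc9b2, Pdgfrl, Ecm2, Aspn and Kera, with differences from 2.07 to 4.18. The 15 lowest were Chil3, Trem1, Mmp8, Ccl4, Saa3, Clec4e, Ccl3, Cd300lf, Nlrp3, Cd14, Trem3, Tnf, Hdc, Cxcr2 and Slfn4, with differences from -2.96 to -1.95. All 30 passed under each alternative, except that the filter on low values left out Akr1c21, Chil3, Mmp8 and Ccl4. The arrays of the days did not overlap in any of them, which the choice of these genes required.

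**Figure D1:**
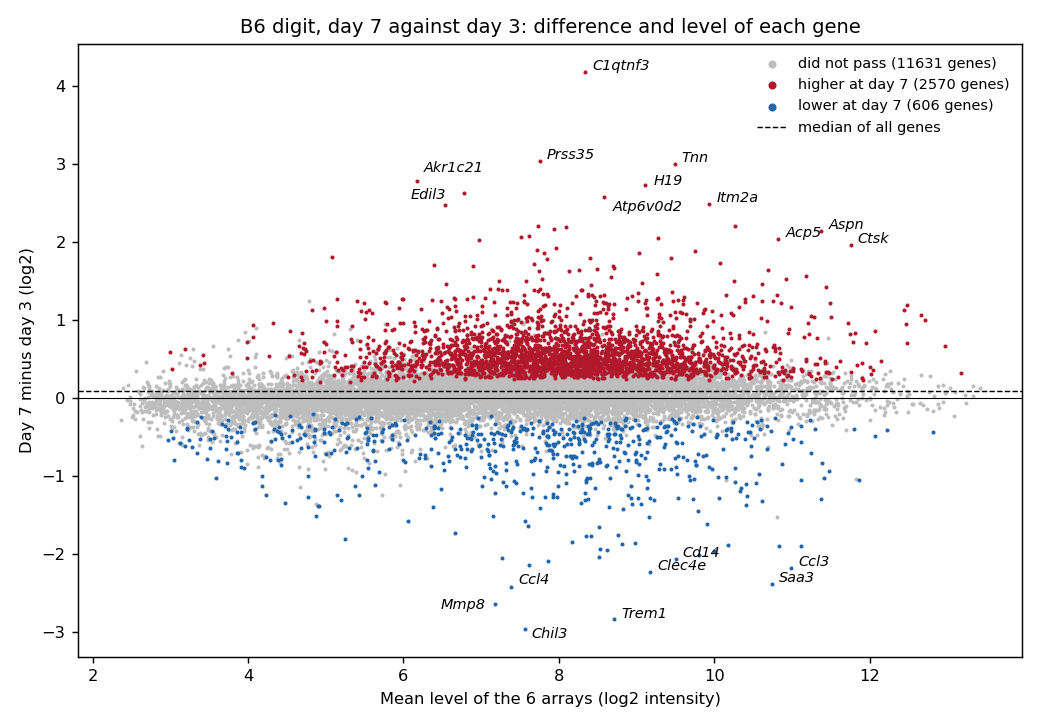
Each point is 1 gene, with the mean log2 intensity of the 6 arrays on the horizontal axis and the log2 difference, day 7 minus day 3, on the vertical axis. Red marks the 2570 genes higher at day 7, blue the 606 lower, and the dashed line the median of all genes; the matrix gene C1qtnf3 lies highest at 4.18 and the myeloid gene Chil3 lowest at -2.96.

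Part of the neutrophil genes fell. Of 13 measured genes of the neutrophil list, 6 were lower and 0 higher, against 4.09% of all genes lower, and the list median was -1.53 against 0.09 for all genes. In 8 of the 13 all day 7 arrays lay below all day 3 arrays, as in 6.99% of all genes. Trem1, a receptor that amplifies inflammatory signals on neutrophils and monocytes, stood at 10.04, 10.09 and 10.27 at day 3 and at 6.66, 8.18 and 7.05 at day 7. All day 3 arrays were high, and replicate 2 was the highest of day 7. Trem1 fell by 2.83 (SE 0.28, adjusted p = 3.7e-07 by limma), 7.13-fold.

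Mmp8, the neutrophil collagenase, stood at 8.40, 7.99 and 9.11 at day 3 and at 5.36, 6.69 and 5.54 at day 7. It was lower on each day 7 array than on any day 3 array and fell 6.21-fold (SE 0.29 in log2, adjusted p = 1.41e-06 by limma). Csf3r, the receptor of the granulocyte growth factor G-CSF, was at 9.74, 9.59 and 9.90 and then at 7.60, 8.23 and 7.82, a 3.64-fold fall. Clec4d and Clec4e, paired receptors for microbial and damage-derived glycolipids, were 3.69-fold and 4.69-fold lower. Lcn2, the iron-carrier-binding lipocalin 2, was 3.06-fold lower, but its adjusted p of 0.028 rose to between 0.058 and 0.125 when replicate 1 or 3 of day 3, or replicate 1 or 3 of day 7, was left out.

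Several neutrophil genes did not pass. S100a8 and S100a9, the subunits of calprotectin, had differences of -1.04 and -1.53 and did not pass (adjusted p = 0.227 and 0.128 by limma), though their arrays did not overlap. Both passed when only the 6 arrays were fitted (adjusted p = 0.00569 and 0.00282). Some genes of the secondary granules differed between the arrays of day 7. Ngp, a neutrophil granule protein, stood at 7.40, 6.32 and 7.53 at day 3 and at 8.63, 9.07 and 6.47 at day 7. Replicate 3 of day 7 was the low one, and without it Ngp, Camp and Ltf passed as higher (adjusted p = 0.03, 0.043 and 0.036). With all 6 arrays their differences were 0.97, 0.31 and 0.32, and none passed. Mpo and Elane, a peroxidase and a protease of primary granules, differed by -0.28 and -0.03.

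Inflammatory cytokines and chemokines were lower in part. In the list of neutrophil chemokines and the interleukin 1 family, 10 of 17 measured genes were lower and 0 higher. The list also held Ccl4, a macrophage chemokine, which was its lowest member at -2.42. Its median was -0.98, and 4.09% of all genes were lower. Il1b stood at 11.70, 11.89 and 11.74 at day 3 and at 9.33, 10.59 and 9.74 at day 7. Its day 3 arrays were close together, and its day 7 arrays spread with replicate 2 highest. Il1b fell by 1.89 (SE 0.35, adjusted p = 0.000455 by limma), and its day 7 arrays stood above the day 0 level of 6.01 ± 0.38 (SD, n = 3).

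Cxcl2, a neutrophil chemokine, stood at 11.99, 11.82 and 12.40 at day 3 and at 9.43, 10.98 and 10.11 at day 7. Replicate 2 again was the highest of day 7, and all 3 were below day 3, a 3.73-fold fall (adjusted p = 0.00396). Its receptor Cxcr2 was at 10.87, 10.76 and 11.29 and then at 8.59, 9.59 and 8.85, 3.9-fold lower. Ccl3 and Ccl4, chemokines of activated macrophages, were 4.51-fold and 5.36-fold lower, and Tnf, tumour necrosis factor, was 4.12-fold lower. Nlrp3, the inflammasome sensor that drives release of interleukin 1 beta, was 4.25-fold lower.

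The brakes on interleukin 1 fell as well. Il1rn, the secreted receptor antagonist, fell by 0.99 and Il1r2, the decoy receptor, fell by 0.90, while the ligand Il1a fell by 0.98. Il6 and Cxcl1 had differences of 0.60 and -0.23 and did not pass. Il6 ranged from 4.38 to 6.71 between the day 7 arrays, with replicate 2 the highest. Cxcl5 was 2.15-fold lower with an adjusted p of 0.0276, which became 0.052, 0.099 and 0.182 without replicate 2 of day 3, replicate 3 of day 3 and replicate 1 of day 7.

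Promoter windows of the neutrophil genes that fell are shown because all of them held the core letters bound by PU.1, a transcription factor of myeloid cells. Windows of 250 bases before to 50 after the start site came from RefSeq (build GRCm38.p6), and all 13 measured neutrophil genes had one. The letters GAGGAA were searched on both strands, and 28.3% of all 32851 windows held them. They were in 6 of 6 windows of the neutrophil genes that fell and in 4 of 7 of those that did not pass. This motif was picked from 7 after the counts were seen, and the other 6 were in 0 to 2 of the same 6 windows. Nor was it particular to myeloid genes. It was in 3 of 5 windows of the Wnt genes that passed and in 3 of 5 of the endothelial genes that passed. Other lists lay below the share of all windows, as with 1 of 10 windows of the metalloproteinases and inhibitors that passed. A match describes letters in a window and shows no binding. In the 3 windows printed here, capitals mark the match, which lies 162 bases before the start site in Trem1, 86 before in Csf3r and 219 before, on the other strand, in Mmp8. The windows are chr17:48232489-48232788 (+ strand), chr4:126024409-126024708 (+ strand) and chr9:7558179-7558478 (+ strand).
Trem1: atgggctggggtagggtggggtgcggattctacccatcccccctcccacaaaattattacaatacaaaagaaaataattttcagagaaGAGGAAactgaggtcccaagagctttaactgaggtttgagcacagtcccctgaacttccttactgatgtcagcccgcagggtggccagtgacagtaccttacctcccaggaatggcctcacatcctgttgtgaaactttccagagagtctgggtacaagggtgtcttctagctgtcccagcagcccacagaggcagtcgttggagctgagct
Csf3r: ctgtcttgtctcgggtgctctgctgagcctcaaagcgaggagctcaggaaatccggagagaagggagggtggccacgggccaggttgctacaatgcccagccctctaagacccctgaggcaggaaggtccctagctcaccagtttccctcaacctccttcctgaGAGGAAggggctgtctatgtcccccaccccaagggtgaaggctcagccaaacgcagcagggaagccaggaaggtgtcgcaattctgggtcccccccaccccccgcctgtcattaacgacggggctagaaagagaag
Mmp8: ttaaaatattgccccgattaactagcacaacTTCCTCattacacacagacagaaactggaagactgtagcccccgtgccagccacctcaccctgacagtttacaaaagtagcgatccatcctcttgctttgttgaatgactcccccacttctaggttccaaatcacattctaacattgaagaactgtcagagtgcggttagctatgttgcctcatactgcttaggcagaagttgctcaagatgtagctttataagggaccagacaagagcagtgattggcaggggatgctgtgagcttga

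Monocyte and macrophage genes fell in part. Of 18 measured macrophage genes, 8 were lower (4.09% of all genes) and 0 higher, and the list median was -0.15. Chil3, a chitinase-like protein of activated mouse macrophages, stood at 8.97, 8.33 and 9.81 at day 3 and at 5.72, 7.06 and 5.46 at day 7. It spread on both days, but each day 7 array was below each day 3 array, and it fell 7.77-fold (SE 0.34 in log2, adjusted p = 2.6e-06 by limma). Cd14, the co-receptor for bacterial lipopolysaccharide, was at 10.54, 10.24 and 10.81 and then at 8.16, 8.84 and 8.42, 4.17-fold lower.

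Markers carried by macrophages at large had smaller differences. Itgam, the integrin subunit CD11b of neutrophils and monocytes, fell by 1.30 (adjusted p = 1.81e-06), and Adgre1, the F4/80 antigen, fell by 0.75. Msr1 and Trem2, receptors for modified lipoproteins and lipids, fell by 0.75 and 0.74. Csf1r, the receptor of macrophage colony-stimulating factor, had a difference of 0.00, and the genes of alternatively activated macrophages Mrc1 and Arg1 had -0.05 and -0.15, none of which passed. Retnla differed by 1.24 and did not pass, and replicate 2 of day 7 stood at 7.10 with the other day 7 arrays at 4.65 and 4.47.

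In the list of monocyte and CC chemokine genes, 7 of 19 were lower (4.09% of all genes) and 0 higher (median -0.10). This list did not hold Ccl3 and Ccl4, the CC chemokines given above with larger falls, and its lowest difference was -1.30. Only 4 were lower when replicate 2 of day 3 or replicate 3 of day 7 was left out. Ccl2, the main monocyte chemokine, stood at 8.86, 9.34 and 8.88 at day 3 and at 7.27, 8.03 and 7.89 at day 7, a 2.46-fold fall without overlap. The receptor Ccr1 was 2.44-fold lower, and Ccl9 and the fractalkine receptor Cx3cr1 were 1.77-fold and 1.65-fold lower. Ccl8 and Ccl17 had differences of 0.36 and 0.88 and did not pass.

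Of 11 measured genes of acute phase and wound plasma proteins, 4 were lower (4.09% of all genes) and 1 was higher (17.4%). The list median was -0.43. The lower count was 7 after loess scaling or median centring and 2 without replicate 1 of day 3 or replicate 1 of day 7. Saa3, serum amyloid A3, was at 12.02, 11.58 and 12.19 at day 3 and at 9.12, 9.47 and 10.06 at day 7, and it fell 5.2-fold (adjusted p = 0.000363). Plaur, the urokinase receptor, was 2.04-fold lower. Of 9 interferon-response genes, 4 were lower (4.09% of all genes) and 0 higher (median -0.70). Irf7, a transcription factor that drives interferon genes, stood at 8.51, 8.80 and 8.29 and then at 7.05, 7.32 and 7.55, a 2.34-fold fall to near its day 0 level of 7.43 ± 0.16 (SD, n = 3). The antiviral genes Rsad2, Oasl1 and Oasl2 fell by 0.96, 0.73 and 0.95.

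Osteoclast genes moved the opposite way. Of 16 measured osteoclast genes, 12 were higher and 0 lower at day 7, against 17.4% of all genes higher, and the list median was 0.81. Like the other lists, this one was drawn with earlier results of these data known. In 11 of 16 all day 7 arrays lay above all day 3 arrays, as in 23.8% of all genes. The count was 10 or 11 after the scalings and 11 or 12 when 1 array was left out. The log2 of the summed intensity of the 16 genes was 12.83 to 13.06 at day 3 and 14.18 to 14.29 at day 7, and at most 12.12 at day 0.

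Acp5, the tartrate-resistant acid phosphatase used to stain osteoclasts, stood at 10.04, 9.66 and 9.72 at day 3 and at 11.85, 11.84 and 11.84 at day 7. Its day 7 arrays were nearly identical and far above day 3, a 4.1-fold rise (SE 0.17 in log2, adjusted p = 5.14e-08 by limma). Its day 0 level was 9.53 ± 0.10 (SD, n = 3), and the step from day 0 to day 3 did not pass. Ctsk, cathepsin K, was at 10.95, 10.81 and 10.57 and then at 12.74, 12.79 and 12.67, 3.89-fold higher. Atp6v0d2, a proton pump subunit also needed for cell fusion in mouse osteoclasts, was at 7.33, 7.03 and 7.51 and then at 9.72, 10.11 and 9.78, 5.99-fold higher. It had also risen from day 0 to day 3, by 1.85.

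Genes of fusion and signalling rose with the resorption enzymes. Dcstamp, the membrane protein that drives fusion of osteoclast precursors, stood at 6.21, 5.93 and 5.77 at day 3 and at 7.97, 7.96 and 8.04 at day 7. The arrays of each day were close together, and the rise was 4.06-fold (adjusted p = 1.36e-07). Its relative Ocstamp rose 1.99-fold, the collagen-sensing receptor Oscar 3.27-fold and Itgb3, the beta 3 integrin that anchors osteoclasts to bone, 2.73-fold. Mmp9, a gelatinase of osteoclasts and neutrophils, rose 2.38-fold. Slc9b2, a sodium-proton exchanger of mouse osteoclasts that stood among the 15 highest genes, rose 4.6-fold.

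The chloride channel of the ruffled border and its partner, Clcn7 and Ostm1, rose by 0.63 and 0.44. Tcirg1, the osteoclast subunit of the proton pump, rose by 0.45, a call lost after loess scaling and median centring (adjusted p = 0.0566 and 0.0546). Src, needed for the ruffled border, had a difference of 0.32 with an adjusted p of 0.0201, which was above 0.05 in the fits of 6 and of 12 B6 arrays (0.163 and 0.0546), under each of the 3 scalings and without replicate 2 or 3 of day 3 or replicate 1 or 3 of day 7 (0.126, 0.066, 0.072 and 0.099). The regulators at the head of the pathway did not pass. Tnfrsf11a, the receptor RANK, differed by 0.01 and Nfatc1, the master transcription factor, by 0.16. Calcr, the calcitonin receptor, differed by 0.00 and stood between 4.91 and 5.07 on the 6 arrays. Car2, the carbonic anhydrase that supplies acid, stood at 9.91, 10.84 and 10.93 at day 7, with replicate 1 low, and did not pass.

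The signals that steer osteoclasts went in both directions. Among 12 osteoclast regulators, 3 were higher (17.4% of all genes) and 5 lower (4.09%), with a median of -0.14. After each scaling 1 was higher. Tnfsf11, the ligand RANKL, stood at 8.52, 7.97 and 8.26 at day 3 and at 8.49, 8.46 and 9.02 at day 7. The days overlapped and the difference of 0.41 did not pass (adjusted p = 0.0985). It passed without replicate 1 of day 3 (adjusted p = 0.039) and with array weights (adjusted p = 0.0151). Csf1, macrophage colony-stimulating factor, was 1.55-fold lower. Tyrobp, the signalling adaptor of TREM2 in myeloid cells, was 2.59-fold lower, and Junb, a subunit of the transcription factor AP-1, was 1.68-fold lower. Sfrp1, a secreted Wnt antagonist, rose 2.15-fold.

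The rise of the proton pump rested on few subunits. Of 15 measured subunits, 6 were higher (17.4% of all genes) and 1 lower (4.09%), with a median of 0.17. The higher count was 3, 4 and 2 after loess scaling, quantile scaling and median centring and 3 when only the 6 arrays were fitted. Atp6v0d2 stood apart at 2.58, followed by the accessory subunit Atp6ap2 at 0.64. Among 16 cathepsins and lysosomal genes, Ctsk was the only one higher (17.4% of all genes) and 4 were lower (4.09%). The 4 became 8 after quantile scaling, 9 after median centring and 2 without replicate 3 of day 7. Ctsh and Lgmn, cathepsin H and legumain, fell by 0.43 and 0.49.

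Promoters of 2 osteoclast genes are shown because Acp5 and Ctsk are the most used markers of the cell and their windows hold the core letters of NFAT, the factor family of Nfatc1. Of the 16 osteoclast genes, 9 had a RefSeq window. The letters TGGAAA, searched on both strands, were in 21.4% of all windows, in 4 of 12 windows of the genes that rose and in 0 of 3 of those that did not pass. By gene, 4 of 7 that rose held them in some window, as did 6472 of all 27025 genes. This motif too was picked from the 7 after the counts were seen, and it was not particular to these genes. The PU.1 letters had the same counts, in 4 of 12 windows and 4 of 7 genes that rose and in 0 of 3 windows of the others. The E box letters CANNTG were in 10 of the 12 windows, against 72.3% of all windows. Capitals mark the match, on the other strand and 117 bases before the start site in Acp5 (1 of 3 windows) and on the other strand at the start site in Ctsk. The windows are chr9:22130549-22130848 (- strand) and chr3:95498960-95499259 (+ strand), build GRCm38.p6.
Acp5: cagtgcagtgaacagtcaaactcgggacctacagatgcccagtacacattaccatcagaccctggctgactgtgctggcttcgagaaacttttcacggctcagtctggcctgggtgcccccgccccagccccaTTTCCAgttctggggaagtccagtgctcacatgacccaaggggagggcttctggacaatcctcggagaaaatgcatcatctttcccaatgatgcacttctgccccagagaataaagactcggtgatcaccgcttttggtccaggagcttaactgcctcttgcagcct
Ctsk: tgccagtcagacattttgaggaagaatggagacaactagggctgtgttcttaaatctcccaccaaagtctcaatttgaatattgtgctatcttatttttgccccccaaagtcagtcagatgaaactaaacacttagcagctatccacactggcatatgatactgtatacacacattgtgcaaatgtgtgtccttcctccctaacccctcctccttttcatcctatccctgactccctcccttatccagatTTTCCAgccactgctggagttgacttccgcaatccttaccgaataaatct

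**Figure D2:**
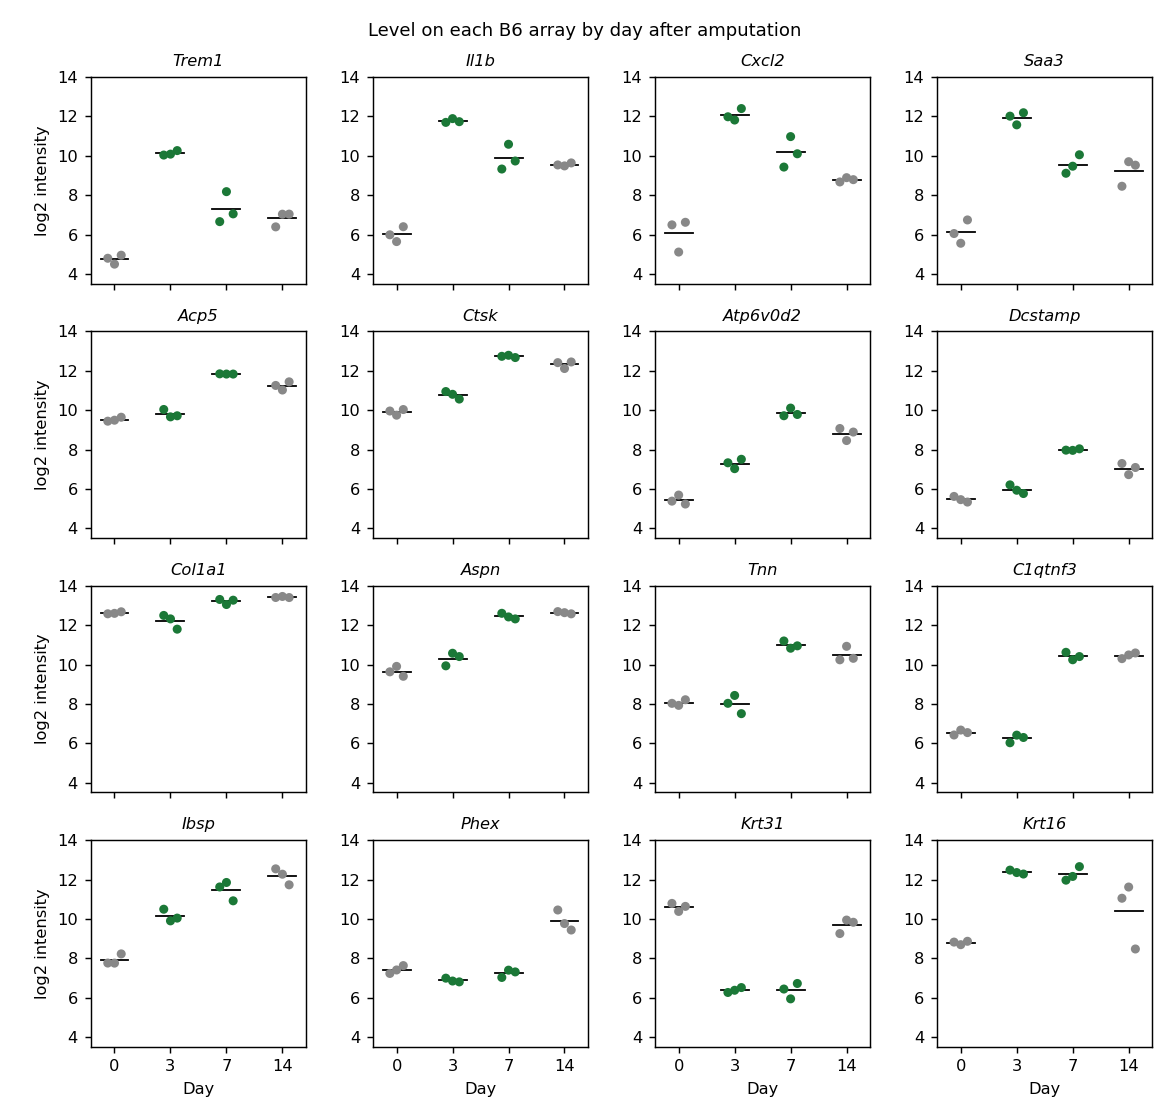
Each panel shows 1 gene on the 12 B6 arrays, with the day after amputation on the horizontal axis and the log2 intensity on the vertical axis; points are arrays, lines are group means, and days 3 and 7 are green. Inflammatory genes such as Il1b stood highest at day 3, osteoclast genes such as Acp5 highest at day 7, matrix genes such as Aspn were as high at day 14 as at day 7, and Phex and Krt31 rose after day 7.

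Collagen genes rose as a group. All 18 measured genes of the list of fibrillar and associated collagens were higher at day 7 (17.4% of all genes), with a median of 1.20. The list left out the fibrillar cartilage collagens Col11a1, which rose, and Col2a1, which did not pass (0.46). The count of the list was 17 under each scaling and 14 when only the 6 arrays were fitted. It was 15 to 18 when 1 array was left out. Col1a1 and Col1a2, the chains of type I collagen of bone and dermis, had the highest arrays near the top of the scale. Col1a1 stood at 12.49, 12.32 and 11.80 at day 3 and at 13.31, 13.05 and 13.27 at day 7, without overlap, a 2.01-fold rise (adjusted p = 3.68e-05 by limma). Its day 0 level was 12.62 ± 0.05 (SD, n = 3), so day 3 lay below the uncut digit (-0.42, passed) and day 7 above it. Col3a1, the collagen of young scar, rose 1.93-fold.

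Col12a1, a fibril-associated collagen of tendon and periosteum, was at 10.20, 10.25 and 10.01 and then at 11.78, 11.58 and 11.69, 2.89-fold higher (SE 0.11 in log2, adjusted p = 4.55e-09). Col8a1, a short-chain network collagen, rose 2.87-fold, Col24a1, a fibrillar collagen of forming bone, 2.76-fold, Col6a1, of microfibrils around cells, 2.74-fold, and Col14a1 2.5-fold. The basement-membrane collagen Col4a1 and the related Col18a1 had differences of 0.45 and 0.41, and both calls depended on the fit. Col4a1 did not pass without replicate 2 or 3 of day 3 or replicate 3 of day 7 (adjusted p = 0.0555, 0.0679 and 0.0678) or in the fit of 6 arrays (0.0844). Col18a1 did not pass after loess scaling, quantile scaling or median centring (adjusted p = 0.105, 0.103 and 0.0669). It also did not pass in the fits of 12 B6 arrays and of 6 arrays (0.0745 and 0.154) or without those 3 arrays or replicate 1 of day 7 (0.103 to 0.179).

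Of 15 genes that process or crosslink collagen, 11 were higher (17.4% of all genes) and 0 lower (median 0.52). Without replicate 3 of day 3 or in the fit of 6 arrays, 7 were higher. Plod2, the lysyl hydroxylase that sets the crosslinks of bone and scar collagen, stood at 8.37, 8.35 and 8.31 and then at 9.69, 9.84 and 9.52, a 2.54-fold rise (adjusted p = 0.000244). Loxl2, a lysyl oxidase, rose 2.23-fold. P3h1 and P3h3, prolyl 3-hydroxylases, rose by 0.74 and 0.93, and Bmp1, the protease that trims the end of procollagen, by 0.77.

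Small leucine-rich proteoglycans bind collagen fibrils and set their width. They were higher in 9 of 11 cases (17.4% of all genes) and lower in 0, with a median of 1.13. Aspn, asporin, stood at 9.93, 10.57 and 10.40 at day 3 and at 12.60, 12.42 and 12.32 at day 7. All day 7 arrays were higher, by 4.42-fold (adjusted p = 3.73e-07). Kera, keratocan, known from cornea and tendon, rose 4.21-fold, Ogn, osteoglycin, 3.63-fold, Epyc, epiphycan of growth plate cartilage, 3.24-fold and Lum, lumican, 2.19-fold. Epyc spread at day 7, at 7.35, 7.54 and 8.36, with replicate 3 the highest.

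Adhesive and matricellular proteins of wounds rose in 17 of 21 cases (17.4% of all genes) and fell in 0, with a median of 0.79. After loess scaling or median centring 2 fell. Tnn, tenascin N, a matrix protein of periosteum and forming bone, was at 8.03, 8.43 and 7.50 at day 3 and at 11.20, 10.83 and 10.95 at day 7. The groups lay far apart, 8.02-fold (SE 0.23 in log2, adjusted p = 1.84e-08 by limma), and day 3 was near the day 0 level of 8.05 ± 0.14 (SD, n = 3). Postn, periostin of periosteum and scar, rose from 11.81, 11.89 and 11.95 to 13.19, 12.99 and 13.05, 2.28-fold. The thrombospondins Thbs2, Thbs3 and Thbs4 rose 2.95-fold, 3.22-fold and 3.31-fold, while Thbs1 differed by -0.26 and did not pass, except as lower after loess scaling and median centring. Fap, a protease of activated fibroblasts, rose 2.62-fold, and Fn1, fibronectin, 1.62-fold.

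Other secreted and membrane proteins of mesenchyme were among the largest rises. C1qtnf3, a secreted C1q-like protein first known from growth plate cartilage, stood at 6.03, 6.41 and 6.29 at day 3 and at 10.62, 10.24 and 10.40 at day 7. No array came between these values, and the difference was 4.18 (SE 0.19, adjusted p = 1.47e-11 by limma), 18.1-fold. It was at 6.54 ± 0.13 (SD, n = 3) at day 0 and 10.46 ± 0.15 at day 14. Edil3, a secreted integrin ligand, rose from 5.32, 5.32 and 5.77 to 8.02, 8.12 and 8.15, 6.17-fold. Prss35, a secreted protein of the serine protease family, rose 8.24-fold, and Itm2a, a membrane protein of differentiating mesenchyme, 5.61-fold. Epha3, an ephrin receptor, rose 5.56-fold from a level near that of day 0.

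H19, an imprinted long noncoding RNA best known from fetal tissue, was at 8.01, 8.07 and 7.14 at day 3 and at 10.35, 10.49 and 10.57 at day 7. Replicate 3 of day 3 was low, but no array overlapped, and H19 rose 6.65-fold (adjusted p = 3.09e-08). Akr1c21, an aldo-keto reductase of steroids, took another course. It stood at 4.74, 4.68 and 4.93 at day 3 and at 7.74, 7.41 and 7.54 at day 7, a 6.87-fold rise, but at 9.25 ± 0.33 (SD, n = 3) at day 0. Mfap4, a protein of elastic microfibrils, and Ecm2 also had day 0 levels above day 3, by 1.94 and 1.42, and rose 4.61-fold and 4.51-fold from day 3 to day 7. Pdgfrl, a secreted relative of the PDGF receptors, rose 4.56-fold. Pdgfrl and Itm2a had also been lower at day 3 than at day 0, with differences of -0.81 and -0.885 that passed.

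**Figure D3:**
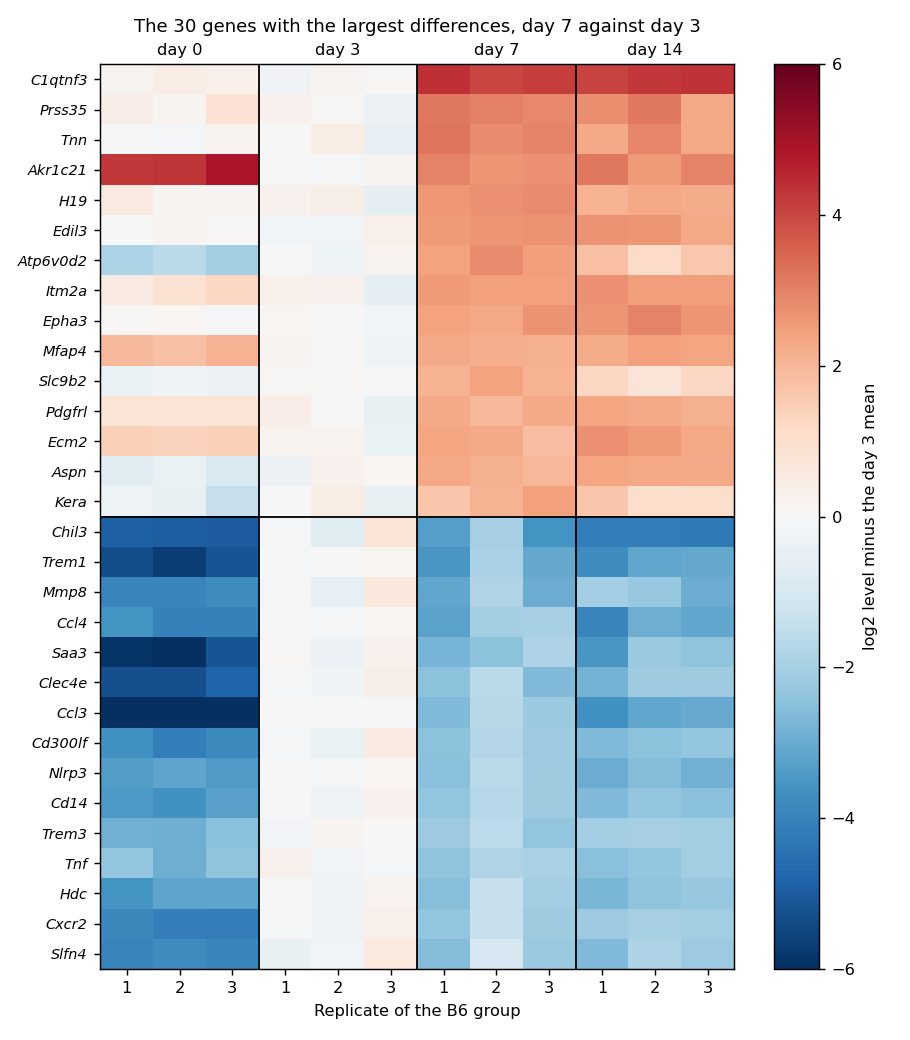
Rows are the 15 genes with the highest and the 15 with the lowest day 7 minus day 3 difference, columns are the 12 B6 arrays by day and replicate, and colour is the log2 level minus the gene's day 3 mean, with a scale that ends at 6 on either side of 0. Genes that fell were near white at day 3 and pale or mid blue at day 7, with replicate 2 of day 7 the palest except in Saa3 and Ccl4; Akr1c21 was red at day 0, white at day 3 and red again at day 7.

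Proteases that cut matrix were exchanged. Of 20 metalloproteinases and inhibitors, 10 were higher (17.4% of all genes) and 2 lower (4.09%), with a median of 0.59. The scalings gave 4 lower. The 2 lower were Mmp8 and Mmp3, stromelysin 1, which was at 10.98, 10.69 and 11.49 and then at 9.65, 10.19 and 10.42, a 1.96-fold fall (adjusted p = 0.00459). Mmp2, the gelatinase of fibroblasts, was at 10.94, 10.72 and 10.52 and then at 12.17, 12.01 and 12.27, 2.68-fold higher. Its membrane-bound activator Mmp14 rose 2.24-fold and Adamts12, a secreted protease of cartilage matrix, 3.16-fold. The inhibitors Timp2 and Timp3 rose 1.95-fold and 2.33-fold, whereas Timp1 differed by -0.41 and did not pass (adjusted p = 0.157), but passed as lower after each scaling (adjusted p = 0.0388, 0.0432 and 0.0227).

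Mmp13, the collagenase of bone and cartilage, stood at 11.12, 10.59 and 11.25 at day 3 and at 11.90, 12.15 and 12.01 at day 7. Its arrays did not overlap, but its adjusted p of 0.0336 rose to 0.0645 after loess scaling and 0.0584 after median centring. It was 0.158 without replicate 2 of day 3 and 0.0639, 0.0824 and 0.079 without replicate 1, 2 or 3 of day 7. Most of its rise lay between day 0 and day 3, at 4.98. Receptors that hold cells to matrix were higher in 9 of 17 cases (17.4% of all genes) and lower in 0 (median 0.37). The scalings gave 2 lower. Itga11, the collagen-binding integrin subunit of fibroblasts, rose 2.63-fold, the proteoglycan receptor Sdc2 2.48-fold and Itgav 1.66-fold.

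Of 13 genes of osteoblasts and osteocytes, 4 were higher and 0 lower, against 17.4% of all genes higher (list median 0.36), and 7 were higher without replicate 1 of day 3. Ibsp, bone sialoprotein, stood at 10.49, 9.90 and 10.04 at day 3 and at 11.62, 11.85 and 10.92 at day 7. Replicate 3 of day 7 was the lowest of that day and still above day 3, and Ibsp rose 2.5-fold (SE 0.32 in log2, adjusted p = 0.00543). Panx3, a channel of osteoblasts and hypertrophic cartilage, rose 1.8-fold. Sp7, the osteoblast transcription factor osterix, differed by 0.33, Dmp1, of osteocytes, by 0.67 and Phex, a phosphate regulator of osteocytes, by 0.36, and none passed, though Dmp1 did without replicate 1 of day 3 (adjusted p = 0.0385). In the next step, from day 7 to day 14, these 3 were higher by 1.13, 1.55 and 2.64.

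Cartilage genes were higher in 6 of 17 cases (17.4% of all genes) and lower in 0 (median 0.36), C1qtnf3 among the higher. Acan, the aggrecan core protein, was at 7.29, 7.09 and 6.50 and then at 8.74, 8.38 and 9.10, 3.43-fold higher (adjusted p = 1.17e-05). Col11a1, of the cartilage fibril, rose 3.78-fold and Hapln1, the link protein, 2.41-fold. The defining genes Sox9 and Col2a1 differed by 0.16 and 0.46 and did not pass, though Col2a1 did without replicate 2 of day 7 (adjusted p = 0.048) and with array weights (adjusted p = 0.0152). In the tendon list, 5 of 7 genes were higher (17.4% of all genes) and 1 was lower (4.09%), with a median of 1.32. Kera and Col14a1, given above, are members of this list too, and its lowest difference was -0.46. Tnmd, tenomodulin, stood at 7.51, 7.75 and 7.25 and then at 9.29, 9.45 and 9.16, 3.48-fold higher and near the day 0 level of 9.32 ± 0.15 (SD, n = 3). The tendon transcription factor Scx rose 2.09-fold.

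Growth factor pathways of mesenchyme rose in part. Of 23 TGF-beta and BMP genes, 11 were higher (17.4% of all genes) and 0 lower (median 0.46). The ligands Tgfb2 and Tgfb3 rose 2-fold and 2.33-fold, while Tgfb1 differed by -0.34 and did not pass. Tgfb1 passed as lower after each scaling (-0.52, -0.49 and -0.51), without replicate 3 of day 3 (-0.49) and with array weights (-0.36). The receptor Tgfbr1 rose 1.82-fold, the ligand Bmp4 1.62-fold, its antagonist Chrdl1 2.01-fold and Msx1, a transcription factor of the digit tip and nail region, 1.67-fold. Bmp2, Nog and Grem1 had differences of -0.11, 0.40 and 0.34 and did not pass.

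Of 24 Wnt pathway genes, 11 were higher (17.4% of all genes) and 0 lower (median 0.37). Secreted Frizzled-related, Dickkopf and WIF proteins were 6 of the 11. Dkk3, a Dickkopf relative, stood at 7.90, 7.88 and 7.89 at day 3 and at 9.53, 9.23 and 9.57 at day 7, a 2.94-fold rise (adjusted p = 1.84e-08). The antagonists Sfrp2, Sfrp4, Wif1 and Dkk2 rose 1.99-fold, 2.24-fold, 2.01-fold and 1.55-fold. Wnt5a, the ligand of distal limb mesenchyme, was the leading ligand, at 8.24, 8.03 and 8.03 and then at 9.17, 9.37 and 9.38, 2.31-fold higher. The agonist Rspo3 rose 1.49-fold and the receptor Lgr5 1.5-fold. The ligands Wnt7b, Wnt10a and Wnt10b, with differences of 0.17, 0.05 and 0.21, did not pass.

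**Figure D4:**
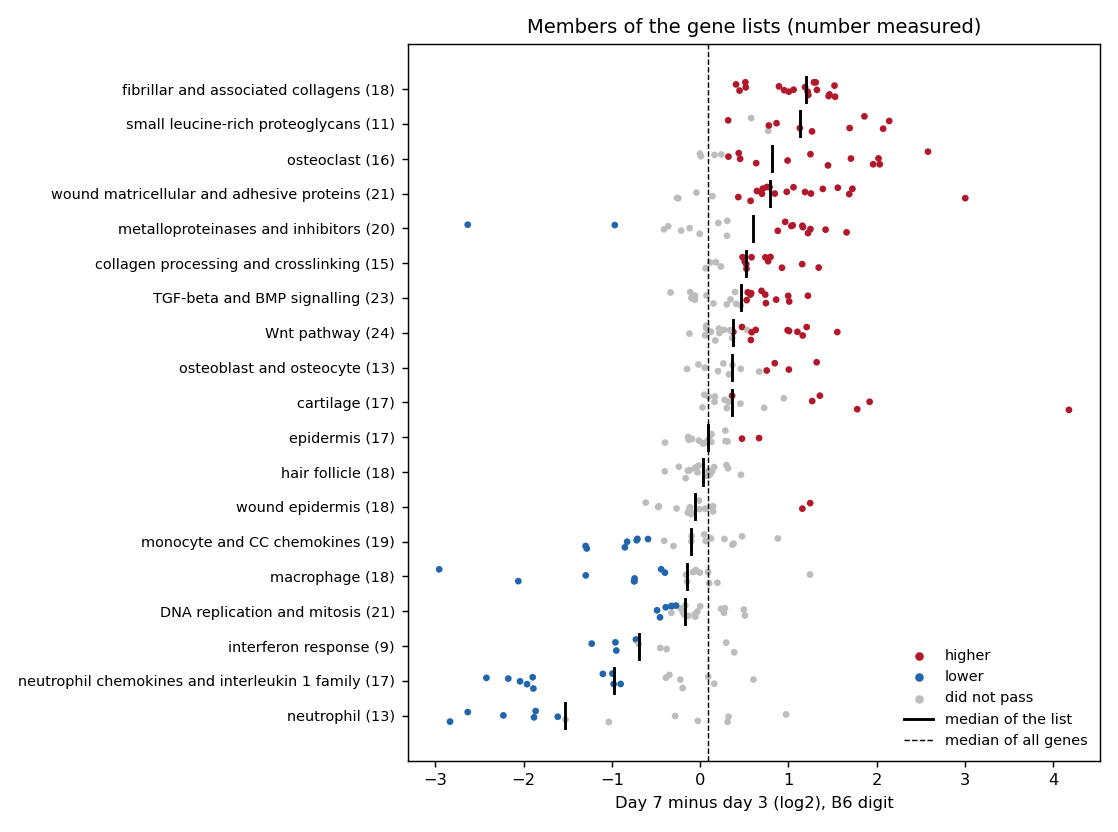
Each row is 1 gene list with its number of measured genes, each point 1 gene and its day 7 minus day 3 difference on the log2 scale; red points were higher, blue lower and grey did not pass, short lines are list medians and the dashed line is the median of all genes. Of the lists drawn, the neutrophil and interleukin 1 lists lie lowest, with medians of -1.53 and -0.98, and the collagens lie highest at 1.20.

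Epidermis and hair follicle changed little in this step. Of 18 hair follicle genes, 0 passed at day 7 against day 3 (median 0.03), although 18 of 18 had been lower at day 3 than at day 0 (28.5% of all genes) and 17 of 18 were higher at day 14 than at day 7 (1.44% of all genes). Krt31, a hair cortex keratin, was at 6.26, 6.37 and 6.51 at day 3 and at 6.43, 5.94 and 6.72 at day 7, against 10.60 ± 0.21 (SD, n = 3) at day 0. The days overlapped, and its next step to day 14 was 3.31. Replicate 3 of day 7 stood apart in Krt73, a keratin of the inner root sheath. Krt73 was at 8.74, 8.52 and 6.28 at day 7 against 7.73, 8.04 and 7.92 at day 3. Its difference of -0.04 turned to 0.74 without that array and then passed (adjusted p = 0.00115), and Krt35 passed without it too (adjusted p = 0.042).

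Genes of the wound epidermis mostly did not pass. Of 18 wound epidermis genes, 2 were higher (17.4% of all genes) and 0 lower (median -0.06). Krt16, a keratin of activated epidermis, was at 12.48, 12.35 and 12.28 and then at 11.97, 12.16 and 12.66, overlapping, against 8.79 ± 0.09 (SD, n = 3) at day 0. The 2 that rose were the epidermal growth factor relatives Ereg and Btc, 2.37-fold and 2.23-fold. Of 17 epidermis genes 2 were higher (17.4% of all genes) and 0 lower (median 0.09). Median centring gave 1 higher and 3 lower, and array weights gave 6 higher. Leaving out replicate 1 of day 3 or replicate 2 of day 7 gave 4 higher. Krt2, a keratin of differentiated epidermis, rose 1.59-fold, with 12.66, 12.85 and 12.41 at day 3 below 13.42, 13.21 and 13.28 at day 7.

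Of 21 genes of DNA replication and mitosis, 6 were lower and 0 higher, against 4.09% of all genes lower, and the list median was -0.17 against 0.09. In the step before, 19 of 21 had been higher at day 3 than at day 0 (17.4% of all genes). The lower count was unstable, at 10, 11 and 11 after loess scaling, quantile scaling and median centring. Over all probe sets, lower calls rose from 664 to 1517, 1419 and 2243 under the same scalings. The list count was 2 in the fit of 6 arrays. It was 2, 3 and 2 without replicate 1 of day 3, replicate 1 of day 7 and replicate 2 of day 7. Cdk1, the mitotic kinase, fell by 0.39 (adjusted p = 0.00602) and stood above its day 0 level of 8.05. Mki67 and Top2a differed by 0.51 and 0.00 and did not pass, though Mki67 did with array weights (adjusted p = 0.0299). Of 17 hypoxia and glycolysis genes 0 passed (median -0.10), against 21.4% of all genes. After the 3 scalings, which raised lower calls over all probe sets, 6, 5 and 8 were lower.

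Of 19 endothelial genes, 8 were higher (17.4% of all genes) and 0 lower (median 0.18), but 3, 4 and 4 were higher after the scalings. Leaving out 1 array gave 3 to 7, with 3 without replicate 2 of day 3 or replicate 3 of day 7. The angiopoietin receptor Tek, with 8.30, 7.83 and 8.18 and then 8.55, 8.79 and 8.82, rose 1.53-fold, and the apelin receptor Aplnr 1.77-fold. Markers of muscle and fat did not pass. Of 12 skeletal muscle genes and 8 adipocyte genes, 0 passed by limma, against 21.4% of all genes. After median centring 2 muscle genes were lower. The muscle genes were low already at day 0, with array medians of 6.09 to 6.28, and of 5.81 to 6.08 at day 3. The filter on low values kept 6 of the 12, which limits what they can show. The log2 of the summed intensity of the muscle genes was 9.48 to 9.70 at day 3 and 9.52 to 9.70 at day 7.

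The step from day 7 to day 14 shares its day 7 arrays with this comparison, so its values are given side by side only. It changed fewer genes, with 213 of 14807 (1.44%) higher and 59 (0.398%) lower. Of the 15 genes that rose most by day 7, Atp6v0d2 and Slc9b2 were then lower by day 14, with differences of -1.06 and -1.12, and the others did not pass. Of 16 osteoclast genes, 5 were lower at day 14, among them Oscar (-0.94), Dcstamp (-0.95) and Itgb3 (-0.61), while Acp5 and Ctsk had -0.60 and -0.41 and did not pass. None of the 18 collagens passed in that step, and Epyc was the only proteoglycan of its list that did, at -1.60. Of the 15 genes that fell most by day 7, Nlrp3 was lower again at day 14 (-0.74) and the others did not pass.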

How the data were processed

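Total RNA of B6 mouse digits was measured on Affymetrix exon arrays, 3 per day. Per the submitters' processing notes, the authors summarised the arrays with RMA in Affymetrix Expression Console, with mm8 as the genome build. The deposited values are linear intensity values per probe set, and the step that made them linear is not recorded in these sources. Nor are coordinates of that build used here. Probe sets numbered 16661: 14939 had 1 gene symbol, 989 several and 733 none. By Entrez identifier, 14884 of the single-symbol ones matched the reference gene table, with 0 symbols changed. The 15928 with a symbol were tested.

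The deposited intensities were turned to log2 and fitted by lmFit and eBayes of limma 3.58.1 (R 4.3.3), with 1 mean for each of the 8 groups of all 24 arrays, 16 residual and 4.62 prior degrees of freedom. The two-sided tests took a Benjamini-Hochberg adjusted p of 0.05 over all tested probe sets as threshold. Genes were read from 1 probe set each, the brightest on average over the 24 arrays. Named genes were the 15 highest and 15 lowest that passed without overlap between arrays, predicted genes left out, and members of 36 gene lists, of which 500 of 623 genes were measured. Members and lists were chosen with earlier results of these data known. Signal over background was not analysed here. For 3 arrays a day, the smallest p of an exact permutation test is 0.1, and the number of arrays limits the precision.

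Residuals of day 3 and day 7 arrays of the same replicate number correlated at 0.12, 0.11 and -0.22, so the numbers were not taken as pairs. The fit was tested on simulated data. Alternatives were other scalings, other sets of arrays, a replicate block, a filter on low values, a pseudocount, array weights, probe sets with 1 symbol, another variance model and leaving out each array.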

Additional observations from a re-analysis of the deposited data

How the results depend on the processing

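The scaling, the arrays in the fit and array weights moved the counts by over 1.5 times. Against 3372 probe sets called (2708 higher, 664 lower), cyclic loess scaling gave 1523 higher and 1517 lower, quantile scaling 1615 and 1419, and median centring 1347 and 2243. The fit of the 6 arrays alone called 1914 (1525 higher, 389 lower), and array weights called 5428 (4370 higher, 1058 lower). Leaving out 1 array gave 2286 to 3581 calls, 1767 to 2956 higher, 454 to 652 lower and 329 to 430 at 2-fold, with the fewest calls in all without replicate 2 of day 3, where 1767 were higher. With the replicate number as a block, 3267 were called (2625 higher, 642 lower), and the numbers are not taken as pairs. Calls at 2-fold stayed between 270 and 459 under the other alternatives. Krt73 turned from -0.04 to 0.74 without replicate 3 of day 7, and leaving out single arrays gave -0.49 to 0.74. The cause of these shifts was not tested. The number of arrays, 3 a day, limits what can be called: the median SE over probe sets was 0.12.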

Other observations

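Lists of other cell types and proteins held a few further differences between day 7 and day 3. Complement genes were higher in 5 of 7 cases (17.4% of all genes) and lower in 1 (4.09%). Their median was 0.82 against 0.09 for all genes. C2, a protease of the classical pathway, stood at 7.05, 6.73 and 6.75 at day 3 and at 7.98, 7.78 and 8.01 at day 7, 2.12-fold higher. Masp1, a protease of the lectin pathway, rose 1.8-fold, and the inhibitors Serping1 and Cd55 rose 1.76-fold and 2-fold. C3ar1, the receptor for the complement fragment C3a on myeloid cells, fell 2.22-fold, from 10.97, 11.05 and 10.73 to 9.85, 9.81 and 9.64.

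T cell genes were higher in 4 of 11 cases (17.4% of all genes) and lower in 0 (median 0.20). Median centring left 2 higher. Cd4 rose 1.54-fold and the costimulatory receptor Icos 1.83-fold (adjusted p = 0.00889, and 0.0505 after median centring), while Cd3e differed by 0.13 and did not pass. Skint9, a gene of the epidermal family that selects skin T cells in mice, rose 1.75-fold. Among 9 mast cell genes, 3 were higher (17.4% of all genes) and 1 lower (4.09%). The higher count was 1 after each scaling. It was also 1 without replicate 2 of day 3, replicate 1 of day 7 or replicate 3 of day 7. The lower one was Hdc, the enzyme that makes histamine, at 10.81, 10.61 and 11.02 and then at 8.24, 9.41 and 8.75, 4.02-fold lower. Hdc had risen by 3.30 from day 0 to day 3, and which cells carried it was not tested. Cpa3, the mast cell carboxypeptidase, differed by 0.21 and did not pass. Of 8 B cell genes, Ebf1 was the only one that passed (21.4% of all genes), 1.9-fold higher. Alas2, of heme synthesis in red cells, was the only one of 6 erythroid genes that passed (21.4% of all genes), 2.21-fold lower. It did not pass without replicate 2 of day 3 (adjusted p = 0.0586) or replicate 1 of day 7 (adjusted p = 0.0676). In the MHC class II list, 2 of 5 measured genes fell (4.09% of all genes), with a median of -0.41. The lower count was 5 after loess scaling or median centring and 1 without any 1 array of day 3 or replicate 3 of day 7. Of 8 Schwann cell genes, 1 was higher (17.4% of all genes), with a median of 0.17. The count was 0 without replicate 1 of day 7 and 2 without replicate 1 of day 3 or replicate 2 of day 7.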
